A study of Homo sapiens with 60 samples.

Results

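The 10 genes described here are 3 FOXO transcription factor genes, FOXO1, FOXO3 and FOXO4, and 7 genes widely described as their targets, PDK4, TXNIP, SESN1, SESN3, CCNG2, PIK3IP1 and IRS2. They were taken by name from the 38342 gene names of the deposited expression table, with earlier results of these data known. FOXO proteins are forkhead transcription factors that are held in check by growth factor signalling. Insulin and related ligands activate the lipid kinase PI3K and then the kinase AKT, which phosphorylates FOXO proteins, so that they bind 14-3-3 proteins and leave the nucleus. When that signal is weak, FOXO proteins stay in the nucleus and switch on genes for fuel saving, stress resistance and exit from the cell cycle. The location and phosphorylation of the proteins were not measured here, only messenger RNA.

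MDA-MB-231 cells, an established line from a triple-negative breast cancer with mesenchymal features, received 1000, 300 or 100 nM of the compound BAY2506856 or the solvent DMSO for 1, 3, 6 or 24 h. Every dose had 3 libraries at each time and DMSO had 6, in all 60 libraries of 16 groups. The times come from the sample labels, while the series' own account of its design names 24 h alone. The labels give the compound no target, and do not state whether the replicates of a group came from different cultures. The p-values therefore rest on a spread among samples that may be technical. In RNA from a whole culture, a change within each cell and a change in the share of cells that express a gene cannot be told apart. Levels are FPKM, reads scaled for the length of the gene and the depth of the library, so that genes of different length can be compared.

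Libraries held 0.475 to 86.5 M recovered reads (median 11.2 M), and 3 libraries had under 2 M (DMSO 24 h replicate 2, 1000 nM 3 h replicate 2 and 300 nM 24 h replicate 2). The line markers VIM, CD44, AXL, KRT8, KRT18 and CAV1 lay between 68.8 and 642 FPKM in every library, and the luminal receptor genes ESR1 and PGR reached at most 0.00263 and 0.0128 FPKM. ERBB2 at 4.75 to 10.6 FPKM and EPCAM at 4.43 to 16.3 FPKM were not near 0. Of the markers of other cell types, CD3E was at 0 in all libraries, PTPRC, VWF and ALB reached at most 0.101, 0.038 and 0.0669 FPKM and CD68 0.411 FPKM, while the stromal genes PDGFRB and COL1A1 reached 1.62 and 1.4 FPKM. Of the line markers, AXL at -1.28, KRT18 and CAV1, both at -0.46, were lower and CD44 at 0.45 and VIM at 0.29 higher at 1000 nM than with DMSO at 24 h on the log2 scale, as were the epithelial genes EPCAM at 0.74 and CDH1 at 0.61, and the part of these shifts in the results was not tested. By 11 pseudogenes and the mitochondrial message MT-ND6, 3 types of library could be told apart, on which the labels are silent. Type 1 held 41 libraries, type 2 held 13 and type 3 held 6, all of them DMSO libraries of 1 and 3 h. At 24 h type 2 made up 2 of 3 libraries at 1000 nM, 1 of 3 at 300 nM, 0 of 3 at 100 nM and 1 of 6 with DMSO. Results are therefore also given within type 1 and with a term for each type in the model. Within type 1 the 1000 nM group of 24 h holds 1 library, so its p-values there rest on the spread of other groups.

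At 24 h most of the 10 genes stood higher in BAY2506856-treated cells than in DMSO cells. At 1000 nM 8 genes rose (PDK4, FOXO4, PIK3IP1, CCNG2, TXNIP, SESN3, FOXO1 and FOXO3), 1 fell (IRS2) and SESN1 did not pass the test, where calls are limma's Benjamini-Hochberg adjusted p under 0.05 over all 15866 genes tested. Fold changes are on the log2(FPKM + 0.5) scale, which understates the change of genes at low levels. Of all genes tested, 19.1% were called higher and 15.6% lower in that comparison. At 300 nM 7 of the 10 genes rose and 0 fell, against 16.5% higher and 14.2% lower among all genes, and at 100 nM 6 rose and 0 fell, against 10.5% and 9.2%. The 10 genes had a median log2 change of 0.66 at 1000 nM, 0.65 at 300 nM and 0.48 at 100 nM, beside medians of 0.03, 0.05 and 0.05 over all genes. Counted without a model, all 3 libraries lay above all 6 DMSO libraries for 7 of the 10 genes at 1000 nM, 6 at 300 nM and 5 at 100 nM, beside 12.3%, 13.2% and 14.7% of all genes. The 10 genes were chosen with earlier results of these data known, so the shares beside all genes describe them and are no test. Another limit lies in the filter. FOXO1, PDK4, SESN3 and PIK3IP1 reached the 1 FPKM it asks for in treated libraries only, in 5, 13, 3 and 9 of them. With no filter the 8 genes higher at 1000 nM were still called.

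**Figure D1:**
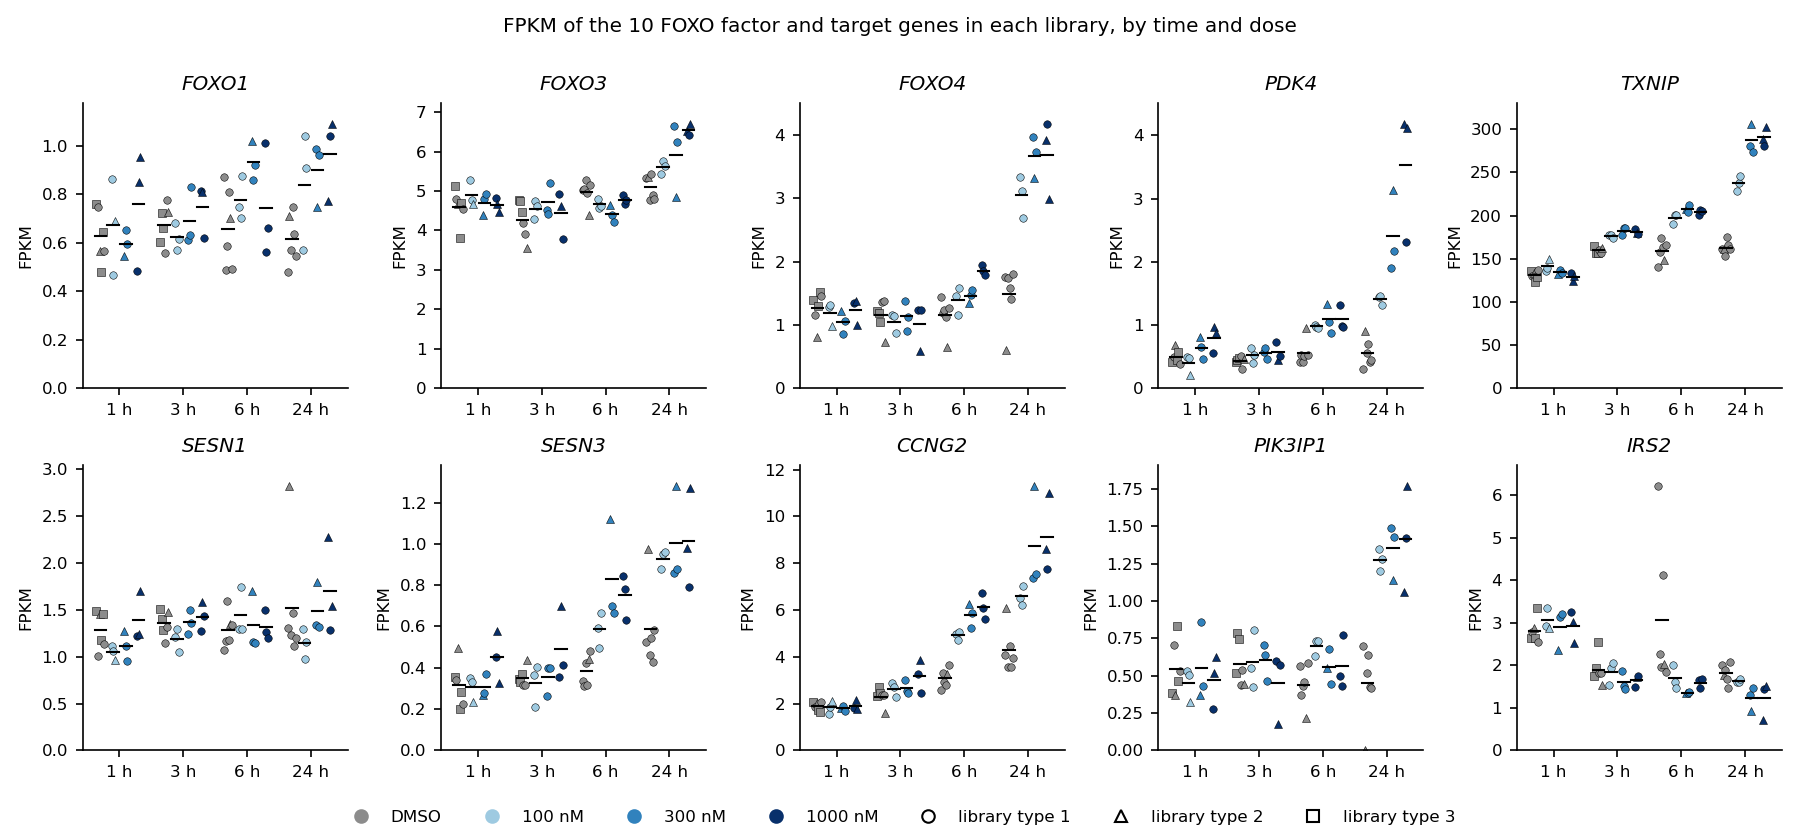
FPKM of the 10 genes in each library (vertical axis, linear, from 0) against time, with DMSO, 100, 300 and 1000 nM side by side at each time; points are libraries, their shape is the library type and the bar is the group mean. At 24 h the treated points of PDK4, FOXO4, PIK3IP1, CCNG2 and TXNIP lie above the DMSO points at every dose, while SESN1 overlaps at every dose.

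Among the 3 factors, FOXO4 had the largest change. At 24 h FOXO4 had 3.91, 4.17 and 2.98 FPKM in the 1000 nM libraries, and the 6 DMSO libraries ran from 0.599 to 1.81 with a median of 1.67 FPKM. All treated libraries lay above all DMSO libraries, and the low DMSO value came from replicate 2, the shallowest library, where FOXO4 had 1 read. FOXO4 rose by 1.11 ± 0.17 on the log2(FPKM + 0.5) scale (SE), a 2.16-fold change with an adjusted p of 7.23e-07. Within library type 1, which leaves 1 library at 1000 nM, FOXO4 rose by 1.12. Over all types it rose by the same 1.11 at 300 nM and by 0.87 at 100 nM (adjusted p = 8.1e-07 and 0.000122), or 1.01 and 0.71 within type 1. At 6 h the 1000 nM libraries, at 1.94, 1.85 and 1.78 FPKM, were above the DMSO libraries, which ran from 0.65 to 1.44 with a median of 1.21. That 6 h difference of 0.53 did not pass the test (adjusted p = 0.122), but passed with library type terms (0.46, adjusted p = 0.0223) and within type 1 (0.43, 0.0026).

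FOXO3, the most abundant of the 3 factor genes with a median of 4.78 FPKM over all libraries, moved by less. The 1000 nM libraries at 24 h had 6.52, 6.43 and 6.7 FPKM, and the DMSO libraries ran from 4.76 to 5.44 with a median of 5.12 FPKM. The groups did not overlap, and FOXO3 rose by 0.33 ± 0.08 (SE, adjusted p = 0.000814), or 1.26-fold. At 300 nM the change was 0.19 (adjusted p = 0.0733), with 1 library at 4.86 FPKM inside the DMSO range. Without that library, replicate 2, which is of type 2 and shallow, the change was 0.31 (adjusted p = 0.00447). At 100 nM it was 0.13 (adjusted p = 0.307). The table also lists FOXO3B, a nearly identical copy of FOXO3, at 1.75 to 5.13 FPKM, so reads may be split between both and the level of FOXO3 is uncertain.

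FOXO1, the factor best known for its role in the liver, was the least abundant of the 3 at a median of 0.702 FPKM. At 24 h FOXO1 had 0.774, 1.04 and 1.09 FPKM at 1000 nM, and the DMSO libraries ran from 0.479 to 0.747 with a median of 0.603 FPKM. Its lowest treated library was only just above the highest DMSO library. The rise was 0.40 ± 0.13 (SE, adjusted p = 0.0146) at 1000 nM and 0.33 (adjusted p = 0.0492) at 300 nM, while at 100 nM the change was 0.25 (adjusted p = 0.186). The call at 1000 nM was lost without replicate 2 or 3 of that dose (adjusted p = 0.0602 and 0.0933), within type 1 (0.50, 0.0646) and in a fit of the 2 groups alone (0.15). The call at 300 nM was lost in 6 of 9 fits that left out 1 library, with adjusted p up to 0.18.

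The 2 metabolic targets showed the largest and the most precise change. PDK4 encodes pyruvate dehydrogenase kinase 4, which blocks the entry of pyruvate into the citric acid cycle. At 24 h PDK4 had 4.18, 2.32 and 4.11 FPKM at 1000 nM, and the DMSO libraries ran from 0.308 to 0.914 with a median of 0.5 FPKM. Every treated library exceeded every DMSO library by a wide margin. PDK4 rose by 1.92 ± 0.16 (SE), or 3.79-fold, with an adjusted p of 7.15e-14. The 2 high treated libraries and the highest DMSO library were of type 2. Within type 1, which leaves 1 library at 1000 nM, the change was 1.53. At 300 nM the libraries had 1.91, 3.13 and 2.17 FPKM, a rise of 1.46, and at 100 nM they had 1.44, 1.46 and 1.32 FPKM, a rise of 0.88 (adjusted p = 3.42e-10 and 4.81e-05). The libraries of 100 nM lay below those of both higher doses, and those of 300 and 1000 nM overlapped. Type 2 libraries numbered 2, 1 and 0 of 3 at 1000, 300 and 100 nM, and within type 1 the rises at 300 and 100 nM were 1.38 and 0.97 (adjusted p = 8.63e-10 and 9.8e-08).

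TXNIP encodes a protein of the arrestin family that binds thioredoxin and limits glucose uptake. It was the most abundant of the 10 genes, at a median of 166 FPKM, above the median level of 97.8% of tested genes. TXNIP measured 289, 280 and 303 FPKM at 1000 nM and 24 h, and 153 to 175 FPKM with a median of 161 in the DMSO libraries. The rise was 0.83 ± 0.05 (SE), or 1.78-fold, with an adjusted p of 1.65e-19. At 300 nM it was 0.82 and at 100 nM 0.54 (adjusted p = 5.28e-19 and 2.04e-12), with no overlap with DMSO at any dose. These values hardly depended on library type, with 0.78, 0.77 and 0.54 at 1000, 300 and 100 nM within type 1.

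TXNIP, IRS2, CCNG2 and PDK4 are shown by their promoters because they are the targets with a searched letter string in it or, for PDK4, with the largest change. Promoters were read from RefSeq on build GRCh38.p14, which found all 10 genes, as the 250 bases before the start of transcription on the gene's strand; the expression values themselves were made on hg19. Capitals mark matches on either strand to GTAAACA, a FOXO consensus string, to CAAAACA, an insulin response string, or to CACGTG, an E-box, which helix-loop-helix factors bind.
TXNIP: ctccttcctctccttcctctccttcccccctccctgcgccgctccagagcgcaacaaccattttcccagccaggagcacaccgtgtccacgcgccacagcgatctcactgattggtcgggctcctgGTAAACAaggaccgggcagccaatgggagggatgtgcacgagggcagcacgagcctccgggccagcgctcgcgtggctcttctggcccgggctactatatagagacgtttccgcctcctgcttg
IRS2: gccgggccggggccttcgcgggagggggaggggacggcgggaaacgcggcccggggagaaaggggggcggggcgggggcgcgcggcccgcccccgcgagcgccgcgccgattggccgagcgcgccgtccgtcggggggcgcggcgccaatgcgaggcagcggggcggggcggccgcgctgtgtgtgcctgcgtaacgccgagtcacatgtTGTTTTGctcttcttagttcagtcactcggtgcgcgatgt
CCNG2: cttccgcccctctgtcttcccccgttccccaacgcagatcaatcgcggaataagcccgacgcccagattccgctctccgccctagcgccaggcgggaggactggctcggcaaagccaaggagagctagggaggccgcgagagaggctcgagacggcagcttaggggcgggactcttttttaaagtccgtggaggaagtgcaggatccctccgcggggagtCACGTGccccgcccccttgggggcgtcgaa
PDK4: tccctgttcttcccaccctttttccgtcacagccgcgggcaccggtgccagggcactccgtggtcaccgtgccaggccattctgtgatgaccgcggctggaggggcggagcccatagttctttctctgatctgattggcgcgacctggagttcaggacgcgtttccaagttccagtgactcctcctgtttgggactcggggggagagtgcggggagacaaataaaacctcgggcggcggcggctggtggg
These windows are TXNIP at chr1:145996580-145996829 on the minus strand, IRS2 at chr13:109786584-109786833 on the minus strand, CCNG2 at chr4:77156957-77157206 on the plus strand and PDK4 at chr7:95596517-95596766 on the minus strand. The FOXO string starts 124 bases before the start of TXNIP, the insulin response string 40 bases before that of IRS2, on the opposite strand, and the E-box 30 bases before that of CCNG2. Each string was found in 1 of the 10 promoters, and in 2.98%, 4.3% and 6.34% of 35116 promoters of the same length. No match overlapped another.

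CCNG2 encodes cyclin G2, an unusual cyclin linked to leaving the cell cycle. At 24 h CCNG2 had 8.59, 7.76 and 11.0 FPKM at 1000 nM, and the DMSO libraries ran from 3.57 to 6.07 with a median of 4.01 FPKM. The groups did not overlap, and both the highest DMSO library and the highest treated library were of type 2. CCNG2 rose by 1.01 ± 0.13 (SE), or 2.02-fold, with an adjusted p of 1.51e-08. Within type 1, which leaves 1 library at 1000 nM, it rose by 0.90. At 300 nM the rise was 0.95 and at 100 nM 0.59 (adjusted p = 9.45e-08 and 0.000763), again without overlap.

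The sestrins SESN1 and SESN3, stress proteins that restrain the growth kinase complex mTORC1, were both measured, and the difference between their changes was not tested. SESN3 had 0.978, 0.79 and 1.27 FPKM at 1000 nM and 24 h, and 0.429 to 0.977 FPKM with a median of 0.535 in the DMSO libraries. The groups overlapped through 1 DMSO library, replicate 2, whose 0.977 FPKM rested on 5 reads. SESN3 rose by 0.48 at 1000 nM, by 0.48 at 300 nM and by 0.41 at 100 nM (adjusted p = 0.00398, 0.00503 and 0.0248). Its call was lost without 1000 nM replicate 3 (0.36, adjusted p = 0.0728), without 300 nM replicate 2 (0.35, 0.0876), at 100 nM without any 1 of the 3 treated libraries or DMSO replicate 5 (adjusted p up to 0.0885), and within type 1 at 1000 nM (0.36, 0.0648). SESN1 had 2.28, 1.28 and 1.54 FPKM at 1000 nM and 1.11 to 2.82 FPKM with a median of 1.27 in the DMSO libraries. Its highest library at 24 h was thus a DMSO one, the shallow replicate 2. SESN1 was at 0.14 (adjusted p = 0.483) at 1000 nM, 0.01 (0.962) at 300 nM and -0.26 (0.227) at 100 nM, with a 95% interval of -0.15 to 0.44 at 1000 nM. Without DMSO replicate 2 the difference at 1000 nM was 0.30 (adjusted p = 0.0495), and within type 1 it was 0.02 (0.95).

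Of the targets that act on the insulin signal itself, PIK3IP1 rose at every dose at 24 h. IRS2 was called lower at 24 h at 1000 nM alone, close to the threshold. PIK3IP1 encodes a membrane protein that inhibits PI3K. It had 1.06, 1.42 and 1.77 FPKM at 1000 nM and 24 h, and 0 to 0.701 FPKM with a median of 0.472 in the DMSO libraries. As measured, the lowest treated library was above the highest DMSO library. The value of 0 was that of DMSO replicate 2, where a count of 0 allows up to 3 reads. In that library 1 read of FOXO4, a gene of like length, came to 0.599 FPKM, so 3 reads would reach into the treated range. The call at 1000 nM held without any 1 library (adjusted p up to 0.001). PIK3IP1 rose by 1.05 ± 0.19 (SE), or 2.07-fold, at 1000 nM, by 1.01 at 300 nM and by 0.95 at 100 nM (adjusted p = 1.72e-05, 3.46e-05 and 0.000186). Within type 1 the rises were 0.89, 0.93 and 0.78. All 9 libraries of the series with at least 1 FPKM of PIK3IP1 were treated libraries of 24 h, and they held 8 to 475 of its reads each. Through these same libraries PIK3IP1 passed the filter, so they are no separate support for its rise.

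IRS2, the insulin receptor substrate adaptor that carries the receptor's signal to PI3K, was the 1 gene that fell. At 24 h IRS2 had 0.718, 1.45 and 1.51 FPKM at 1000 nM, and the DMSO libraries ran from 1.47 to 2.09 with a median of 1.84 FPKM. The groups overlapped by 1 library, and the lowest value was that of a type 2 library. IRS2 fell by 0.46 on the log2 scale (SE 0.19), with an adjusted p of 0.0491 that was close to the threshold. Without 1000 nM replicate 1 the difference was -0.23 (adjusted p = 0.46), within type 1 it was -0.25 (0.576), and without any 1 of DMSO replicates 1, 2, 3, 4 and 6 the call was lost as well (adjusted p of 0.052 to 0.0838). At 300 nM it was -0.42 and at 100 nM -0.12 (adjusted p = 0.0791 and 0.709).

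Doses were also compared with each other, which needs no DMSO library. At 24 h 2 of the 10 genes were higher at 1000 nM than at 100 nM, PDK4 by 1.04 and TXNIP by 0.29 (adjusted p = 0.000146 and 0.000434). Of all genes, 4.94% were called there in either direction and 2.08% as higher. CCNG2 at 0.43 (adjusted p = 0.0896) did not pass, but did without 1000 nM replicate 2 (0.53, adjusted p = 0.0266), as did SESN1 (0.54, adjusted p = 0.037). Without that replicate the 1000 nM libraries were all of type 2 and those of 100 nM all of type 1. Dose and library type cannot be told apart in that fit. Within type 1, which holds 1 library at 1000 nM, PDK4 was at 0.57 and TXNIP at 0.24 (adjusted p = 0.0723 and 0.0629). Between 300 and 100 nM TXNIP alone was called, at 0.27 (adjusted p = 0.00249), beside 1.17% of all genes in either direction and 0.353% higher. Without 300 nM replicate 2 TXNIP was at 0.23 (adjusted p = 0.0595). Between 1000 and 300 nM 0 of the 10 genes were called by limma, with 1 at an unadjusted p under 0.05 and 0 by voom, beside 0.0126% of all genes. The 95% interval of that last step was -0.40 to 0.40 for FOXO4, -0.09 to 0.13 for TXNIP and 0.09 to 0.84 for PDK4. Between 1000 and 100 nM at 6, 3 and 1 h 0 genes were called by limma or voom, with 0, 0 and 2 at an unadjusted p under 0.05 and 0.0189%, 0% and 0% of all genes called.

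**Figure D2:**
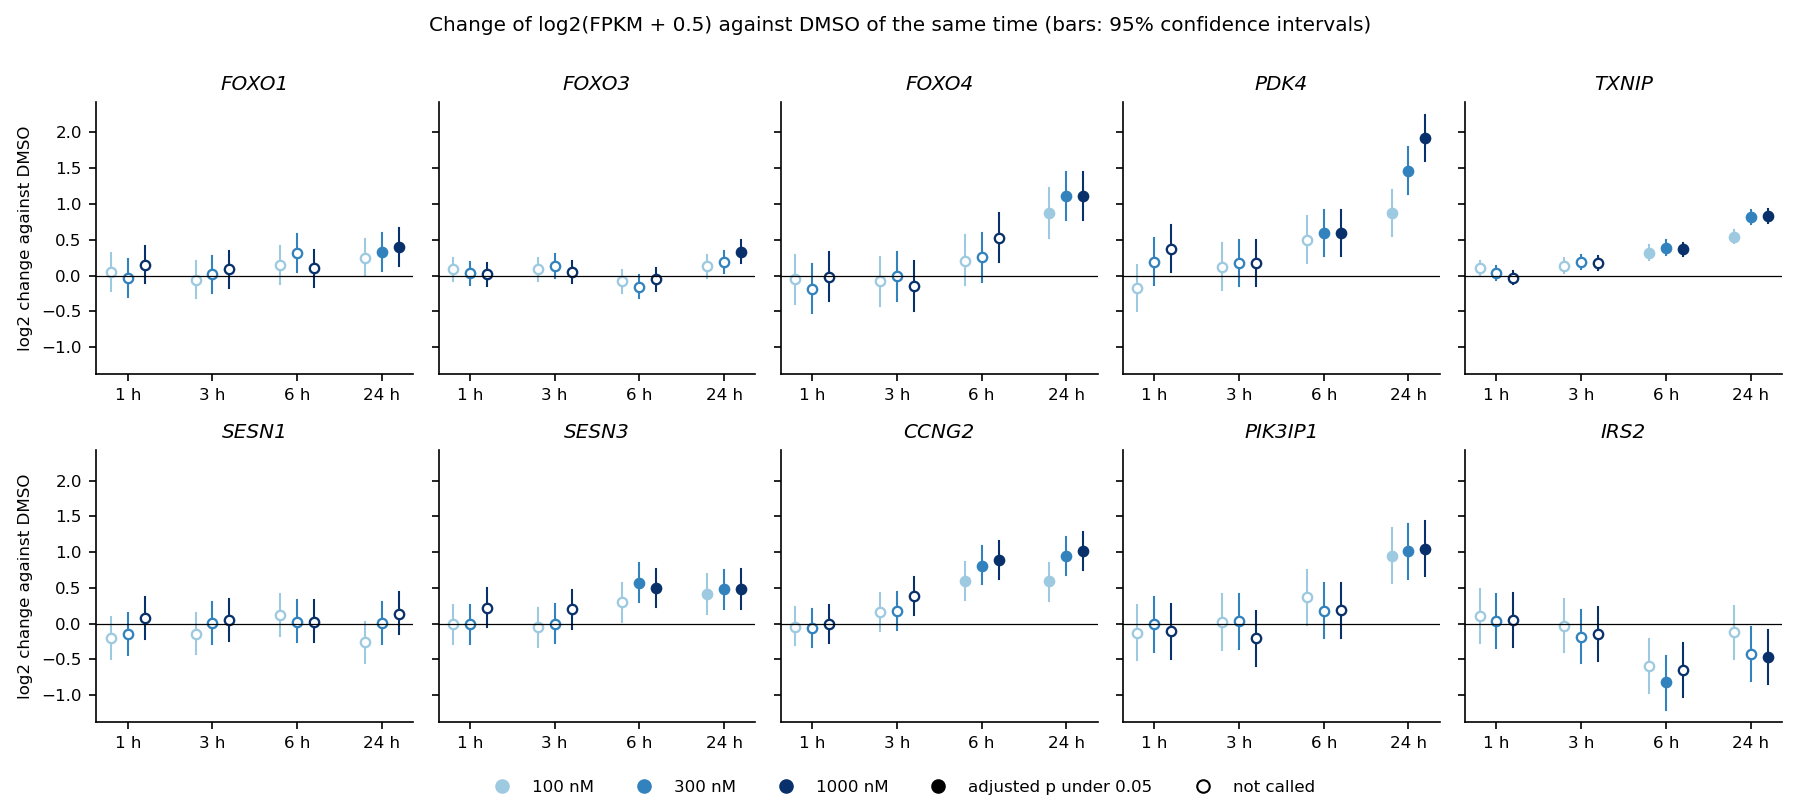
Change of each gene on the log2(FPKM + 0.5) scale (vertical axis) against DMSO of the same time (horizontal axis), for 100, 300 and 1000 nM side by side; points are limma's estimates, bars their 95% confidence intervals, and filled points passed an adjusted p of 0.05. At 1 and 3 h no point is filled, at 6 h filled points appear for CCNG2, TXNIP, PDK4 and SESN3 above 0 and for IRS2 below 0, and PDK4 reaches 1.92 at 24 h.

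In the unweighted fit the earliest calls came at 6 h. At that time 4 of the 10 genes rose at 1000 nM and 0 fell, against 0.706% of all genes higher and 1.3% lower. At 300 nM CCNG2, TXNIP, PDK4 and SESN3 rose as at 1000 nM, and IRS2 fell, against 0.561% and 1.11%, and at 100 nM 2 rose and 0 fell, against 0.208% and 0.655%. CCNG2 had 6.71, 6.09 and 5.62 FPKM at 1000 nM, and the DMSO libraries of 6 h ran from 2.58 to 3.64 with a median of 3.1 FPKM. CCNG2 thus showed no overlap, and it rose by 0.89 at 1000 nM, 0.81 at 300 nM and 0.60 at 100 nM (adjusted p = 5.93e-06, 3.75e-05 and 0.00809). Its call at 100 nM was lost without replicate 1 or 3 of that dose (adjusted p = 0.0643 and 0.079).

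TXNIP at 6 h had 201, 206 and 205 FPKM at 1000 nM, and the DMSO libraries ran from 141 to 174 with a median of 161 FPKM. It rose by 0.37, 0.39 and 0.32 at 1000, 300 and 100 nM (adjusted p = 4.15e-07, 1.03e-07 and 1.88e-05), without overlap. PDK4 had 1.32, 0.99 and 0.964 FPKM at 1000 nM against 0.421 to 0.947 FPKM in DMSO libraries with a median of 0.515. The highest DMSO library, replicate 5, was the type 2 library of its group, and the others reached 0.528. PDK4 rose by 0.60 at 1000 nM and 0.59 at 300 nM (adjusted p = 0.0328 and 0.0406), and was at 0.50 at 100 nM (adjusted p = 0.206). SESN3 rose by 0.50 and 0.57 at 1000 and 300 nM (adjusted p = 0.0338 and 0.0105), and was at 0.30 at 100 nM (0.837). These PDK4 and SESN3 calls were weak: PDK4 at 1000 nM lost its call without any 1 treated library or any 1 of DMSO replicates 1, 2, 3, 4 and 6 (adjusted p up to 0.349), and at 300 nM without any 1 of treated replicates 1 and 2 or the same DMSO replicates (up to 0.422). SESN3 lost its call at 1000 nM without any 1 treated library or any 1 of DMSO replicates 1, 2 and 4 (up to 0.269), and at 300 nM without replicate 1 of that dose (0.322). With library type terms both genes were called at 1000 and 300 nM, and PDK4 at 100 nM as well (0.55, adjusted p = 0.0181). FOXO1, FOXO3, SESN1 and PIK3IP1 were at 0.10, -0.05, 0.03 and 0.19 at 1000 nM and 6 h, and none of these passed the test.

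IRS2 at 6 h rested on 2 DMSO libraries. It had 1.34, 1.35 and 1.37 FPKM at 300 nM, and the 6 DMSO libraries had 6.22, 2.26, 1.97, 4.13, 2.03 and 1.84 FPKM. DMSO replicates 1 and 4 were thus far above the other 4, although all DMSO libraries lay above all 300 nM libraries. IRS2 fell by 0.82 at 300 nM (adjusted p = 0.00662), and was at -0.65 at 1000 nM and -0.59 at 100 nM (adjusted p = 0.0531 and 0.185). With library type terms it was called at 1000 nM (-0.68, adjusted p = 0.0162). Without both of those DMSO libraries the difference at 300 nM was -0.44 (adjusted p = 0.107), and of the 10 genes 2, 2 and 1 were called at 1000, 300 and 100 nM. The remaining calls at 6 h without them were CCNG2 and TXNIP at 1000 and 300 nM and TXNIP at 100 nM. The share of all genes called in that fit is not given, so the lower counts are not set against a background.

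At 3 h and 1 h no gene of the 10 passed the test. At 3 h limma and voom called 0 at each dose, with 2, 1 and 1 at an unadjusted p under 0.05 at 1000, 300 and 100 nM, where 0.132%, 0.126% and 0.0693% of all genes were called. TXNIP had 184, 180 and 179 FPKM at 1000 nM and 3 h, and 157 to 165 FPKM with a median of 159 in the DMSO libraries. At each dose all 3 treated libraries of TXNIP lay above all DMSO libraries of 3 h, and the differences were 0.18 at 1000 nM, 0.19 at 300 nM and 0.14 at 100 nM, with adjusted p of 0.178, 0.166 and 0.616. Under array weights, which give scattered libraries less weight, TXNIP was called at all 3 doses (adjusted p = 0.000909, 0.000216 and 0.0021) and CCNG2 at 1000 nM (0.27, adjusted p = 0.0358), beside 12.5%, 16.1% and 21.5% of all genes called under those weights. CCNG2 was at 0.39 (adjusted p = 0.46) at 1000 nM in the unweighted fit. At 1 h limma and voom called 0 genes of the 10 at each dose, with 1, 0 and 1 at an unadjusted p under 0.05 and 0%, 0% and 0% of all genes called (1637, 192 and 809 genes of all tested had an unadjusted p under 0.05). Under array weights PDK4 at 0.51 and SESN3 at 0.30 were called at 1000 nM and 1 h (adjusted p = 0.00389 and 0.0434), beside 38% of all genes. Of the DMSO libraries, 3 of 6 at 1 h and 3 of 6 at 3 h were of type 3, and what part that has in the values of these times was not tested apart from the type terms, under which 0 genes were called.

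The growth of the 1000 nM response between times was tested as a difference of differences. From 6 to 24 h it grew for 4 of the 10 genes, PDK4 by 1.32, PIK3IP1 by 0.86, TXNIP by 0.47 and FOXO3 by 0.38 (adjusted p = 2.18e-05, 0.0226, 9.42e-07 and 0.0149). Of all genes, 15.1% were called there in either direction and 8.16% as higher. PIK3IP1 was at 0.19 at 6 h and 1.05 at 24 h, and FOXO3 at -0.05 and 0.33. The growth for PIK3IP1 was not called without 1000 nM 6 h replicate 1 or 2 or 24 h replicate 3 (adjusted p = 0.06, 0.0813 and 0.0985). For CCNG2, SESN3 and IRS2 the differences were 0.13, -0.02 and 0.19, with 95% intervals of -0.25 to 0.50, -0.40 to 0.37 and -0.34 to 0.72. For FOXO4 it was 0.58 (adjusted p = 0.103), 0.84 with type terms (0.000492) and 0.69 within type 1, which leaves 1 library at 1000 nM and 24 h. Without DMSO 6 h replicate 5 it was 0.68 (0.0417). From 3 to 6 h and from 1 to 3 h limma and voom called 0 genes, with 3 and 2 at an unadjusted p under 0.05, beside 0.227% and 0.0504% of all genes.

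The DMSO libraries themselves differed between times, and so did their types. At 1 h 2 were of type 1, 1 of type 2 and 3 of type 3, and at 24 h 5 were of type 1 and 1 of type 2. Time and library type are thus partly mixed here. Against 1 h, the DMSO cells of 24 h were higher in CCNG2 by 0.98, SESN3 by 0.40 and TXNIP by 0.31, and lower in IRS2 by 0.51 on the log2 scale (adjusted p = 1.69e-09, 0.00723, 6.46e-08 and 0.0138). In the full fit 3 of the 10 genes were thus higher and 1 lower, against 9.78% and 8.45% of all genes. Within type 1 IRS2 was at -0.45 (adjusted p = 0.186). That fit called 3 of the 10 genes, beside 21.7% of all genes in either direction. CCNG2 ran from 3.57 to 6.07 FPKM in the DMSO libraries of 24 h and from 1.66 to 2.09 FPKM in those of 1 h, without overlap. Against 6 h, 1 gene was higher at 24 h, CCNG2 by 0.40, and 1 was lower, IRS2 by 0.50 (adjusted p = 0.0111 and 0.0261), with 4.96% of all genes higher and 4.38% lower. Without DMSO 6 h replicates 1 and 4 together these were 0.32 and -0.12 (adjusted p = 0.139 and 0.71). CCNG2 also lost this call without DMSO 24 h replicate 2 (0.30, adjusted p = 0.0665), and IRS2 without DMSO 6 h replicate 1 (-0.30, 0.171) or 4 (-0.41, 0.108) or DMSO 24 h replicate 4 or 5 (0.0529 and 0.0564). FOXO4, PDK4, PIK3IP1 and FOXO1 were at 0.13, 0.06, -0.18 and -0.02 between 24 and 1 h in DMSO cells, none of them called.

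Between library types 2 and 1, 6 of the 10 genes were called, a smaller share than the 73.1% of all genes called. The count is thus not particular to these genes. In the model with type terms, type 2 libraries were higher than type 1 libraries in PDK4 by 0.29, SESN1 by 0.29, SESN3 by 0.23 and CCNG2 by 0.19, and lower in FOXO4 by 0.39 and PIK3IP1 by 0.30 (adjusted p = 0.000283, 3.54e-05, 0.000684, 0.00478, 1.17e-06 and 0.0019). FOXO1, FOXO3, TXNIP and IRS2 differed by 0.05, -0.07, 0.01 and -0.17 (adjusted p = 0.494, 0.113, 0.748 and 0.0863). With those terms the 24 h changes at 1000 nM were 1.78 for PDK4, 1.30 for FOXO4, 1.20 for PIK3IP1, 0.92 for CCNG2, 0.83 for TXNIP, 0.37 for SESN3, FOXO1 and FOXO3, and -0.37 for IRS2. All of these but IRS2 were called (adjusted p for IRS2 = 0.0945). Within type 1 alone, where a single 1000 nM library of 24 h is assumed to vary like the other groups, 6 of the 10 genes were called, all higher, beside 35.9% of all genes in either direction. At 300 and 100 nM 8 and 6 were called in that fit, beside 42.8% and 35.7%.

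**Figure D3:**
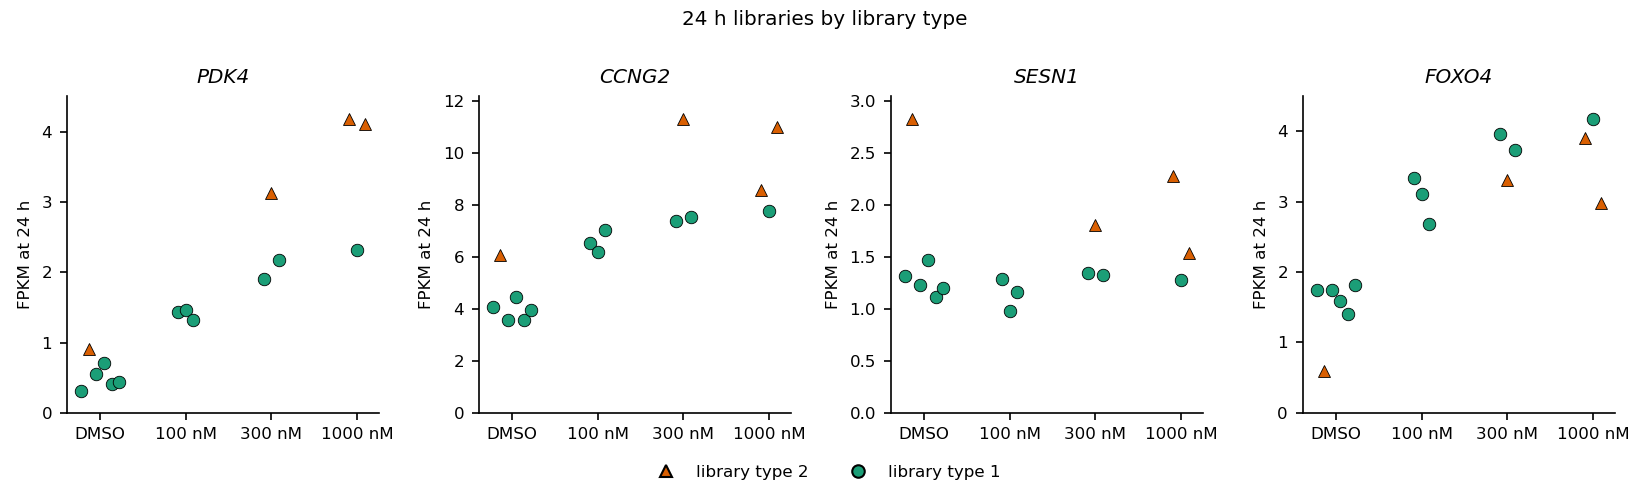
FPKM at 24 h (vertical axis, linear, from 0) of PDK4, CCNG2, SESN1 and FOXO4 for DMSO and the 3 doses in rising order; each point is a library, triangles type 2 and circles type 1. Type 2 points lie at the top of PDK4, CCNG2 and SESN1 in their groups, while for FOXO4 they lie below, with DMSO replicate 2 at 0.599 FPKM.

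Other genes of the pathway were taken from lists by name, some in more than 1 list. The lists too were chosen with earlier results known, so their shares beside all genes are a description. Of 31 tested genes out of 38 listed as other FOXO targets, 18 rose and 2 fell at 1000 nM and 24 h, with a median log2 change of 0.47, beside 19.1% higher, 15.6% lower and a median of 0.03 over all genes. KLF2, a transcription factor that restrains growth, had 20.9 ± 9.84 FPKM at 1000 nM and 2.81 ± 0.399 FPKM with DMSO (SD, n = 3 and 6), a rise of 2.61 (adjusted p = 2.02e-08). TSC22D3, also known as GILZ and as a target of the glucocorticoid receptor, had 14.7 ± 1.63 and 2.76 ± 0.556 FPKM, a rise of 2.23 (adjusted p = 5.13e-21). BBC3, which encodes the cell death protein PUMA, rose by 1.31 (adjusted p = 0.00203), and EIF4EBP1, which encodes a repressor of translation, fell by 1.31 (adjusted p = 7.61e-05). BBC3 lost its call without 1000 nM replicate 2 (0.89, adjusted p = 0.061). At 1000 nM and 6 h 5 of these 31 genes rose and 2 fell, with a median of 0.12, beside 0.706% higher, 1.3% lower and a median of 0.00 over all genes. The count of 5 ranged from 2 with only the groups compared to 12 under array weights, which called 11.4% of all genes in either direction.

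Of 28 tested genes of the PI3K/AKT pathway upstream of FOXO, 8 were higher and 4 lower at 1000 nM and 24 h, with a median of 0.11, beside 19.1% higher, 15.6% lower and a median of 0.03 over all genes. SGK1, a kinase that like AKT phosphorylates FOXO proteins, had 0.746 ± 0.0786 FPKM at 1000 nM and 2.41 ± 0.216 FPKM with DMSO, a fall of 1.22 (adjusted p = 2.6e-19). SGK1 fell already at 3 h, by 0.50 at 1000 nM, 0.34 at 300 nM and 0.36 at 100 nM (adjusted p = 1.73e-05, 0.0219 and 0.0121). It was the 1 gene of this list called at 1000 nM and 6 h, and at 6 h it fell by 0.77, 0.77 and 0.62 at 1000, 300 and 100 nM (adjusted p = 3.14e-11, 5.03e-11 and 3.62e-08). RICTOR, a gene of the target list too that encodes a subunit of mTORC2, and GSK3B, a kinase that AKT inhibits, rose by 0.55 and 0.54 at 24 h (adjusted p = 0.00312 and 6.06e-06). Within type 1 RICTOR and GSK3B were at 0.27 and 0.32, and RICTOR was not called there (adjusted p = 0.0723).

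Of 21 genes for proteins that act on FOXO proteins, 9 rose and 2 fell at 1000 nM and 24 h, with a median of 0.20, beside 19.1%, 15.6% and 0.03 over all genes. SKP2, a ubiquitin ligase subunit that targets FOXO1 for degradation, had 6.09 ± 0.971 FPKM at 1000 nM and 12.3 ± 0.42 FPKM with DMSO, a fall of 0.97 (adjusted p = 3.76e-14). The 14-3-3 gene YWHAH and the acetyltransferase genes KAT2B and EP300 rose by 0.78, 0.70 and 0.64 (adjusted p = 2.88e-13, 2.83e-05 and 1.42e-06). At 24 h 5 genes of this list fell with library type terms, a fit for which no share of all genes is given. Of 4 tested genes of glucose sensing, 0 rose and 1 fell at 1000 nM and 24 h, with a median of -0.14, beside 19.1%, 15.6% and 0.03 over all genes. That gene, the glucose transporter gene SLC2A1, fell by 0.63 (adjusted p = 0.0043), and by 0.27 within type 1, which leaves 1 library at 1000 nM. Without 1000 nM replicate 3 SLC2A1 was at -0.46 (adjusted p = 0.0862).

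Relatives by sequence of the 10 genes were looked at as well. Of 11 paralogs 2 rose and 1 fell at 1000 nM and 24 h, with a median of 0.24, beside 19.1%, 15.6% and 0.03 over all genes. ARRDC2 and ARRDC3, arrestin-family relatives of TXNIP, rose by 0.98 and 0.95 (adjusted p = 4.46e-07 and 4.22e-08), while ARRDC1 and ARRDC4 were at 0.60 and 0.27 (0.335 and 0.125). Of the other pyruvate dehydrogenase kinases, PDK1 and PDK2 were at 0.20 and 0.32 (adjusted p = 0.188 and 0.19) and PDK3 fell by 0.62 (0.0136), but PDK3 was at -0.04 within type 1 (0.897) and at -0.39 without 1000 nM replicate 1 (0.215). FOXO6, SESN2, CCNG1 and IRS1 were at 0.10, -0.19, 0.24 and 0.24 (adjusted p = 0.82, 0.607, 0.172 and 0.107). With library type terms ARRDC1, PDK2 and IRS1 rose too, by 1.16, 0.59 and 0.34, so that 5 paralogs were higher. Without DMSO replicate 2 PDK1 and ARRDC4 were called at 0.30 and 0.39 (adjusted p = 0.0161 and 0.0129). Without 1000 nM replicate 2 CCNG1 was called at 0.38 (0.0433), in a fit whose 1000 nM libraries of 24 h were all of type 2.

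**Figure D4:**
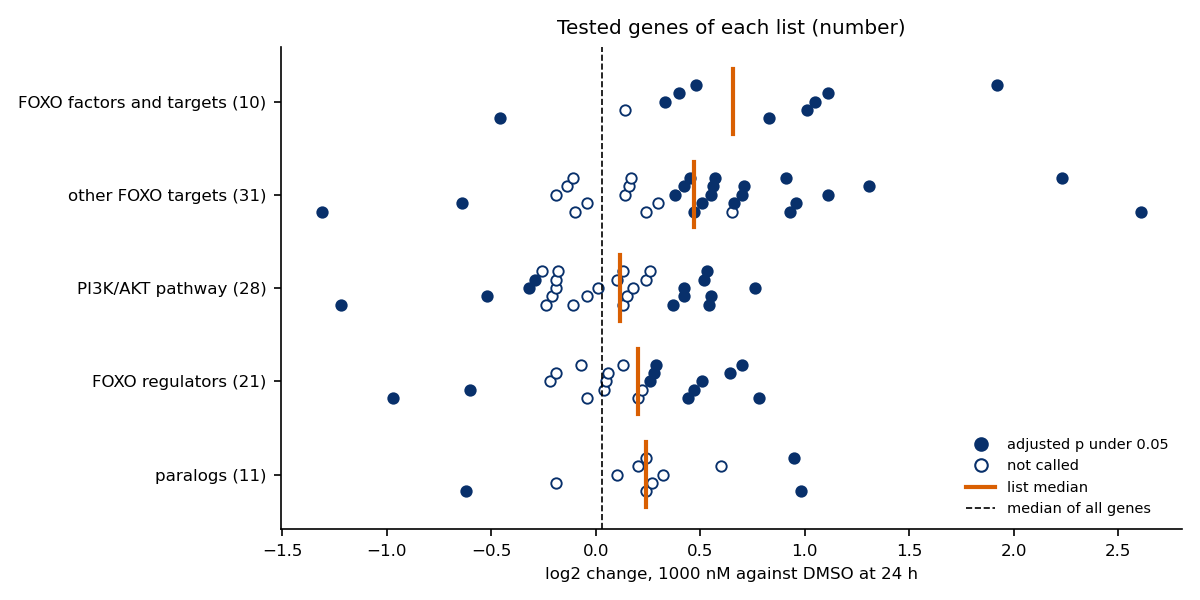
Log2 change at 1000 nM against DMSO at 24 h (horizontal axis) of the tested genes of each list (rows); filled points passed an adjusted p of 0.05, orange bars are list medians and the dashed line is the median of all genes. The median is 0.66 for the 10 genes, 0.47 for other FOXO targets and 0.11 for the PI3K/AKT genes, beside 0.03 for all genes.

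Over the 16 group means of log2(FPKM + 0.5), which share times, doses and library types, several of the 10 genes had like patterns, given here as a description. Pearson's r was 0.96 between SESN3 and CCNG2, 0.94 between TXNIP and CCNG2 and 0.92 between FOXO4 and PDK4, while that of TXNIP with IRS2 was -0.90. Among 4685 other genes whose means spanned at least 1 on the log2 scale, those most like PDK4 were LGR4 and GFPT2 (r = 0.98 and 0.97), and those most like TXNIP were FAM46C and DUSP4 (0.99 and 0.98). CCNG2 was most like ZFYVE1 and DUSP16, FOXO4 most like CYTH4 and PCDHB10 (all 0.98), and PIK3IP1 most like ST6GALNAC2 and TCN2 (0.98 and 0.97). SESN3 was closest to GOLPH3L and PAQR8 (0.97 and 0.96), FOXO3 to UST and C6orf120 (both 0.95), and IRS2 to PTGER4 and GADD45A (0.96 and 0.94). FOXO1 and SESN1, whose means spanned 0.41 and 0.49, had weaker matches in CYP1B1 and ZC2HC1A (0.89 and 0.87) and in PPIAP2 and ZNF816 (0.80 and 0.77).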

How the data were processed

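Poly(A) RNA of 60 MDA-MB-231 libraries was sequenced as single, stranded reads, per the labels' protocols. STAR 2.4.2a, featureCounts 1.4.6-p2 and DESeq2 with build hg19 are named in the submitters' processing notes, without their settings. The deposited values are log2(FPKM + 1) per gene name, made by the authors. FPKM had been assumed for the design, so the log2 values were turned back to FPKM. Whole reads were recovered from the steps of low values. Of 1304094 values above 0, 99.995% were whole within 0.01 reads, which gave depths of 0.475 to 86.5 M reads per library. Depth went partly with library type, with 0.48 to 30.81 M reads in type 2 libraries and 7.37 to 86.49 M in type 1 libraries. All 3 libraries under 2 M reads were of type 2. The part of depth in the values was not tested apart from type.

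Values were tested as log2(FPKM + 0.5) with limma 3.58.1 (R 4.3.3; trend and robust settings) in 1 fit of all 16 groups, which leaves 44 residual degrees of freedom, over 15866 genes that reached 1 FPKM in 3 or more libraries. The 23 comparisons were each dose against DMSO at each time, doses against each other, changes of the 1000 nM effect between times, and DMSO cells between times. The p-values were adjusted by Benjamini and Hochberg over all genes tested, within a comparison. The code was tested on simulated data. No 2 libraries held identical values. Library types were called from 6 pseudogenes minus 5 others and MT-ND6.

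The alternatives were pseudocounts of 0.1 and 1 FPKM, no filter, array weights, scaling by median of ratios, voom on the recovered reads, a fit of the compared groups alone, library type terms, the first library type only, leaving out libraries under 2 M reads, and leaving out each library. Leaving out DMSO 6 h replicates 1 and 4 together was added after the values were seen.

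The members and lists were chosen with earlier results of these data known. Named are the 10 genes, from every list up to 4 genes, the most changed past the threshold at 1000 nM and 24 h, all paralogs, and the 2 genes most like each member over the 16 group means; a gene that this rule also picks is not reported here. Promoters came from RefSeq (GRCh38.p14), read with Python 3.11.15, pandas 2.3.3 and numpy 2.4.6. Figures used matplotlib 3.10.9.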

Additional observations from a re-analysis of the deposited data

Results flagged for a closer look

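Among 40 groups of 6 DMSO libraries, 1 per gene and time, 7 held a library far from its group by Dixon's test, where chance gives about 1 in 20. DMSO 24 h replicate 2, which had 0.475 M reads, accounts for 4 of them. There FOXO4 was lowest at 0.599 FPKM, with 1.41 to 1.81 in the others, SESN1 was highest at 2.82 FPKM (1.11 to 1.47 in the others), SESN3 at 0.977 FPKM (0.429 to 0.582) and CCNG2 at 6.07 FPKM (3.57 to 4.47). DMSO 6 h replicate 5 was highest in PDK4 at 0.947 FPKM (0.421 to 0.528 in the others) and lowest in FOXO3 at 4.38 FPKM (4.95 to 5.27). DMSO 3 h replicate 6 was lowest in CCNG2 at 1.58 FPKM (2.32 to 2.73). All 7 values came from type 2 libraries.

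The 1000 nM effect differed between 24 h and 6 h, by a test of the difference itself, for FOXO3 by 0.38, PDK4 by 1.32, TXNIP by 0.47 and PIK3IP1 by 0.86 on the log2 scale (limma adjusted p = 0.0149, 2.18e-05, 9.42e-07 and 0.0226).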

How the results depend on the processing

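No value of the 10 genes that passed the test in either fit changed direction under any alternative run. Counts of the 10 genes called moved by over 1.5 times as follows. Array weights called 2 at 1000 nM and 1 h (38% of all genes under those weights), 2, 1 and 1 at 1000, 300 and 100 nM and 3 h (12.5%, 16.1% and 21.5%), 6 at 100 nM and 6 h (6.91%), 1 and 5 between 1000 and 100 nM at 1 and 24 h (16.7% and 36%), 4 between 300 and 100 nM (19.7%), 2 between 1000 and 300 nM (41.2%), and 1 and 4 for the growth of the effect from 1 to 3 h and from 3 to 6 h (22.9% and 11.8%). A fit of only the groups compared called 1, 1 and 0 at 1000, 300 and 100 nM and 6 h, 0 between 1000 and 100 nM and between 300 and 100 nM at 24 h, and 0 between DMSO cells of 24 and 6 h; fewer samples then estimate the spread. Without DMSO 6 h replicates 1 and 4 together the counts were 2, 2 and 1 at 6 h and 0 between DMSO cells of 24 and 6 h. The first library type alone gave 0 between 1000 and 100 nM at 24 h and 1 for the growth from 3 to 6 h. Without libraries under 2 M reads 4 were called between 1000 and 100 nM and 0 between 300 and 100 nM at 24 h, and with no filter 1 between DMSO cells of 24 and 6 h. The cause of these moves was not tested. For the growth from 3 to 6 h the first type called 1.34% of all genes in either direction. No share is given for the fits of only the groups compared, with no filter, or without the 2 DMSO or the shallow libraries. Those counts are thus not set against a background.

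Leaving out 1 library at a time gave 7 to 9, 6 to 7 and 5 to 6 calls at 1000, 300 and 100 nM and 24 h, 2 to 5, 3 to 5 and 1 to 2 at 6 h, 2 to 4 between 1000 and 100 nM and 0 to 1 between 300 and 100 nM at 24 h, 3 to 5 for the growth from 6 to 24 h, and 1 to 2 between DMSO cells of 24 and 6 h. Shares of all genes are not given for these fits, so the ranges are not set against a background.

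Of the lists at 1000 nM and 24 h, PI3K/AKT genes were higher in 4 and lower in 1 with only the groups compared (8 and 4 in the full fit). They were lower in 10 under array weights, which called 48.9% of all genes in either direction (34.7% in the full fit). Other FOXO targets were lower in 4 with voom and 1 with only the groups compared (2 in the full fit). Regulators were lower in 5 with library type terms (2 in the full fit). Paralogs were higher in 5 with library type terms or array weights and in 4 without shallow libraries (2 in the full fit). No share of all genes is given at 24 h for only the groups compared, voom, library type terms or the fit without shallow libraries. The counts of those settings are thus not set against a background. At 6 h the other FOXO targets were higher in 12, 9, 8, 3 and 2 under array weights, the first type, type terms, without the 2 DMSO libraries and with only the groups compared (5 in the full fit). Array weights and the first type called 11.4% and 7.7% of all genes there in either direction (2.01% in the full fit).

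No paired analysis was possible because the labels number the libraries in 1 running order and give no replicate number that groups share. FOXO4 rested on 1 read and PIK3IP1 on 0 in the shallowest library, so depth limits their values there.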
